A study of Mus musculus with 18 samples.

Results

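A set of 10 genes of fat cell formation was followed in NIH/3T3 mouse embryonic fibroblasts with and without XPO4, an exportin that carries cargo out of the nucleus. They were the regulators Zfp423, Ebf1, Cebpb, Cebpd, Klf4, Pparg, Cebpa and Dlk2 and the adipocyte markers Fabp4 and Lpl. They were chosen by name, with earlier results of these data known. All 10 were found among the 55401 genes of the count tables. The mRNA-seq comprised 3 libraries of wild-type (WT) cells and 3 of XPO4 knockout (KO) cells. The KO line was made with CRISPR-Cas9 and carries a frameshifting deletion in the first exon of Xpo4, with both copies edited alike. NIH/3T3 cells were purchased from a cell repository, and both lines were grown in DMEM with 10% FBS, with no fat-inducing cocktail described, so these are levels in undifferentiated fibroblasts. A second assay of the same lines, circRNA-seq after RNase R, comprised 12 libraries, 2 each of nuclear, cytoplasmic and whole-cell RNA per genotype. Nothing in the labels says that replicates were separate cultures, so p-values measure the spread between these libraries, which may be technical. With 1 KO line, the effect of the deletion and other differences between the lines cannot be told apart.

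Adipogenesis runs as a cascade of transcription factors. ZFP423 and EBF1 mark and promote commitment to the preadipocyte state, and KLF4 and the early CCAAT/enhancer-binding proteins C/EBPβ and C/EBPδ appear within hours of hormonal induction. These raise PPARγ and C/EBPα, which maintain each other and switch on lipid-handling genes such as Fabp4 and Lpl. The membrane protein DLK1, also called Pref-1, holds preadipocytes back, and DLK2 is its homologue.

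Before any direction is read, the genotype labels need a limit. In 6 of the 6 mRNA count files the header names an input alignment of the other genotype (the file titled KO replicate 1 was counted from an alignment named for WT replicate 1), while the name of the count file matches the title. Genotypes follow the titles here, and by the alignment names every sign in the mRNA results would be turned round. The mRNA of the targeted gene did not settle this. Xpo4 had 657, 614 and 685 reads in the WT libraries and 712, 504 and 687 in the KO libraries, which overlapped. Its log2 fold change was 0.18 ± 0.11 (SE, adjusted p = 0.193, edgeR quasi-likelihood test with Benjamini-Hochberg adjustment), and 0.34 (adjusted p = 0.000252) without KO replicate 2. That library stood apart from the other KO replicates: the chi-square per gene was 10.6 and 12.3 for the pairs holding it, 3.68 for the other KO pair and 3.06 to 4.98 for the WT pairs. The libraries held 16974062 to 22057323 counted reads. Of the 8 fibroblast markers all were tested, and their summed level was 2745 to 2891 fragments per kilobase of gene, scaled to the total of counted reads (FPKM) in WT and 2726 to 2926 in KO. By gene 5 were higher in KO, 2 lower and 1 not called, against 25.1% higher and 23.6% lower of all genes tested. The extraction text in the labels speaks of blood. The 8 blood markers summed to 0.837 to 1.24 FPKM in WT and 0.839 to 1.03 in KO, with Hbb-bs and Cd3e at 0 in every library. Among them Ptprc had 108, 103 and 105 reads in WT against 32, 26 and 21 in KO, Csf1r had 27 to 46 reads in every library, and Hba-a1 had 0 in each WT library against 8, 7 and 6. Their part in the results was not tested.

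The sequences shown are the upstream regions of Cebpb and Klf4, which were lower in KO together, and the backsplice junctions of the Ebf1 circles, the exonic circles found among the 10 genes (below). The mRNA reads lie in exons and measure nothing in the upstream regions. RefSeq promoter windows (GRCm38.p6; 250 bases before to 50 after a start) were matched by symbol for 7 of the 10 genes, with 12 windows in all; Cebpd, Fabp4 and Lpl had no entry. The 250 bases before the start of Cebpb (chr2:167688665-167688914, plus strand) and of Klf4 (chr4:55532476-55532725, minus strand, printed 5′ to 3′ of the gene) were as follows, with capitals marking TGACG on either strand, the core of the cAMP response element (CRE) that CREB binds.
Cebpb: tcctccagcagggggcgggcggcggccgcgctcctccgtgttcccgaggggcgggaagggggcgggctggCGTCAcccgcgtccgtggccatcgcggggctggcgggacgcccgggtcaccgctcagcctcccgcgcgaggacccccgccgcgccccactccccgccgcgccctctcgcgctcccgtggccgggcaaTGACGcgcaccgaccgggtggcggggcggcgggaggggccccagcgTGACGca
Klf4: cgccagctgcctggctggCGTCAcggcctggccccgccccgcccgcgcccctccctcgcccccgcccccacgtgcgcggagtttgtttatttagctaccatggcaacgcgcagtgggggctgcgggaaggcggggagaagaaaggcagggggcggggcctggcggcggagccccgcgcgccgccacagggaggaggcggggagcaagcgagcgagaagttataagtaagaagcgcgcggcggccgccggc
Cebpb held 3 such cores and Klf4 held 1. Of the other members' windows, 1 of Dlk2, which was higher in KO, and 1 of Ebf1, which was not called, each held 1 over their 300 bases. On either strand, TGACG was present in 20.8% of the 32851 RefSeq windows of 300 bases. Over the whole 300 bases Cebpb also had 5 GC boxes (GGGCGG) and 1 TATAAA, the latter past the annotated start and so not printed, and Klf4 had 4 GC boxes and no TATAAA. The GC box was in 35.7% and the TATA box in 13.6% of all windows. Both windows were rich in G and C (80.7% for Cebpb and 74.3% for Klf4, against a median of 52.7% over all windows). Neither held a C/EBP core (TTNNGNAA, in 40.7% of windows). These matches describe letters, not binding.

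The commitment factors came first. Zfp423, a zinc finger protein of preadipocytes (chr8:87661810-87959595, minus strand), had no read in any WT library and 0, 2 and 1 reads in the KO libraries. A count of 0 allows at most 3 reads, which is 0.0243 to 0.0315 FPKM over the 6 libraries, so the gene was at or under the floor in both genotypes and was not tested. Ebf1 (chr11:44617317-45008091, plus strand), a helix-loop-helix factor, was by contrast plainly expressed. Its level was 6.68, 6.67 and 5.84 FPKM in WT and 7.02, 6.51 and 7.63 in KO, and the groups overlapped. The log2 fold change was 0.14 ± 0.0724 (95% interval -0.0154 to 0.297, adjusted p = 0.125), so a difference was not shown. Without KO replicate 2 it was 0.20 and passed the test (adjusted p = 0.0117).

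The early factors Cebpb, Cebpd and Klf4 were the 3 most abundant of the 10 genes in both genotypes, and each was lower in KO. Cebpb (chr2:167688915-167690418), a single-exon gene whose protein starts the cascade, stood at 154.3, 152.8 and 148.7 FPKM in WT and 95.3, 104.5 and 82.4 in KO. All KO libraries lay below all WT libraries. The log2 fold change was -0.69 ± 0.0763 (adjusted p = 6.93e-06), a 1.62-fold lower level. In bulk RNA, fewer cells with the transcript and less of it per cell cannot be told apart. Cebpd (chr16:15887286-15891031), its early partner, stood at 92.3, 90.0 and 90.6 FPKM in WT and 64.2, 72.0 and 58.1 in KO. Again no library of one genotype reached the other, and the log2 fold change was -0.49 ± 0.0719 (adjusted p = 8.62e-05), 1.41-fold lower. Within KO the same libraries ranked highest (replicate 2) and lowest (replicate 3) for both C/EBP genes. The coefficient of variation was 11.8% for Cebpb and 10.8% for Cebpd in KO, against 1.91% and 1.29% in WT.

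Klf4 (chr4:55527143-55532466, minus strand), a Krüppel-like zinc finger factor that can act upstream of Cebpb, had the smallest adjusted p of the 10 genes. It had 1566, 1598 and 1599 reads in WT against 610, 615 and 583 in KO. Those are 25.8, 26.8 and 23.8 FPKM against 11.2, 11.3 and 11.3, so the KO libraries were nearly level and well below WT. The log2 fold change was -1.18 ± 0.0649 (adjusted p = 8.84e-09), 2.27-fold lower. Across the 6 libraries the log2 CPM of 2900026A02Rik, Gm35048 and P2rx4 followed that of Klf4 most closely, with Pearson r of 0.99943, 0.99932 and 0.99919. With 2 groups of 3 libraries a high r needs little beyond a shared difference between the groups. In all, 200 of 14687 genes (1.36%) had r over 0.99, and the points share their libraries.

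The factors that complete the programme were nearly silent. Pparg (chr6:115360951-115490399), the nuclear receptor without which fat cells do not form, had 3, 8 and 4 reads in WT against 4, 2 and 1 in KO, or 0.0837 ± 0.0479 and 0.0446 ± 0.0286 FPKM (SD, n = 3). The groups overlapped, and it was left out by the filter on low counts. Cebpa (chr7:35119293-35121928), its partner in maintaining the adipocyte state, had 0 reads in 6 of 6 libraries, which allows at most 0.0516 to 0.0671 FPKM at 3 reads. At this depth no change in either gene, nor in Zfp423, could be measured.

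Both adipocyte markers among the 10 genes were higher in KO. Fabp4 (chr3:10204088-10208576, minus strand), which encodes the fatty acid binding protein aP2, had 10, 10 and 21 reads in WT against 80, 81 and 72 in KO. Every KO library was above every WT library, and WT was thin. The log2 fold change was 2.72 ± 0.269 (95% interval 2.14 to 3.30, adjusted p = 2.58e-06), 6.59-fold higher, and yet its KO level was 0.984 ± 0.0339 FPKM (SD, n = 3). Per length this lay between Lpl and Pparg in the order of the 10 genes. FPKM rests on its deposited length of 4489 bases, which is the whole span of the gene, introns included. Lpl (chr8:68880491-68907448, plus strand), the lipoprotein lipase that frees fatty acids from circulating triglyceride, had 365, 294 and 380 reads in WT against 706, 649 and 650 in KO. The groups were apart, at 1.61 ± 0.160 and 3.63 ± 0.164 FPKM (SD, n = 3). The log2 fold change was 1.17 ± 0.0840 (adjusted p = 1.17e-07), 2.25-fold higher.

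Dlk2 (chr17:46297421-46303271, plus strand), the EGF-repeat homologue of DLK1, was higher in KO as well. Its level was 3.31, 4.22 and 3.39 FPKM in WT and 5.90, 6.44 and 5.10 in KO, with no overlap. The log2 fold change was 0.68 ± 0.135 (adjusted p = 0.00102), 1.60-fold higher. The far more abundant Dlk1 did not pass the test, as given with the lists below.

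**Figure D1:**
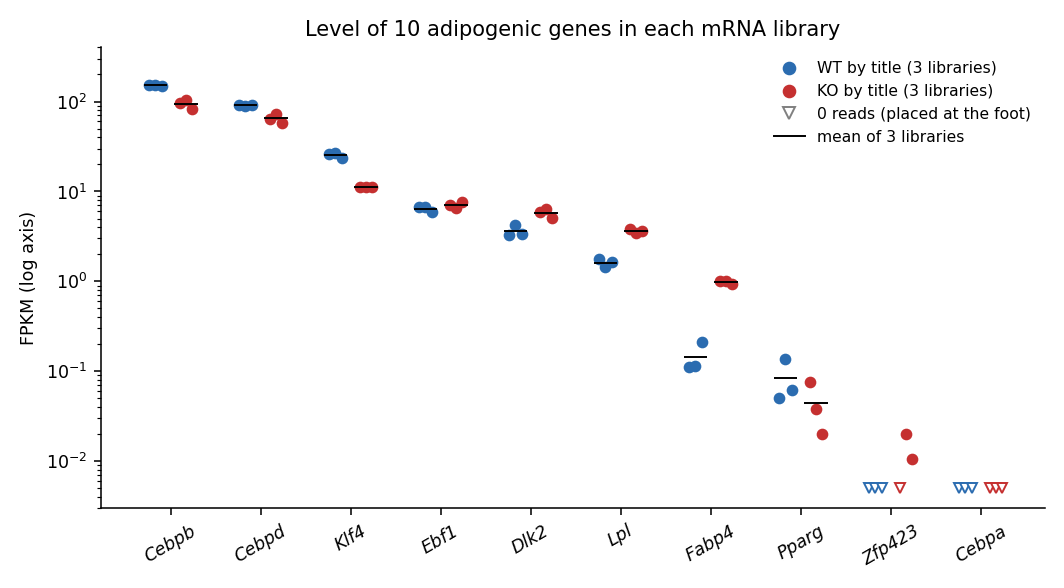
Level of each of the 10 genes in the 6 mRNA libraries, as FPKM on a log axis; points are libraries, lines are means of 3, and open triangles at the foot are libraries with 0 reads. Cebpb, Cebpd and Klf4 lie lower in KO, Dlk2, Lpl and Fabp4 lie higher, Ebf1 overlaps, and Pparg, Zfp423 and Cebpa sit at or near 0.

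Of the 7 genes tested, 3 were higher in KO, 3 were lower and 1 was not called. Over all 14688 genes tested, 48.7% were called, 25.1% higher and 23.6% lower, so calls were common in this comparison and 6 of 7 is read against that. The sizes can be set beside all genes too. The median absolute log2 fold change was 0.692 for the 7 genes and 0.276 for all genes tested, and the signed medians were 0.141 and -0.00293. The genes were chosen with earlier results of these data known, so their shares and medians give no test of the set. The KO and WT libraries did not overlap for the same 6 genes, against 29.3% of all genes with KO above WT and 28.5% with KO below. When a change beyond 1.5-fold was asked for (glmTreat, which called 9.27% of all genes, 5.01% higher and 4.26% lower), Klf4, Lpl and Fabp4 were still called, and Cebpb (adjusted p = 0.220), Cebpd (adjusted p = 1) and Dlk2 (adjusted p = 0.580) were not.

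By mean FPKM the order of the levels was the same in both genotypes from Cebpb through Cebpd, Klf4, Ebf1, Dlk2, Lpl and Fabp4 to Pparg. That order rests on the deposited gene lengths, such as 10478 bases for Lpl and, introns included, 4489 for Fabp4. Zfp423 and Cebpa stood at the foot, both at 0 in WT, and had no order there. Neighbours from Cebpb to Pparg were apart in every library except Fabp4 and Pparg in WT, whose ranges overlapped (0.112 to 0.212 against 0.0511 to 0.139 FPKM). In KO the lowest Pparg library, with 1 read (0.0200 FPKM), was level with the highest Zfp423 library, with 2 reads (0.0199 FPKM). In KO, Fabp4 at 0.945 to 1.01 FPKM was clear of Pparg at 0.0200 to 0.0760.

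NIH/3T3 cells are aneuploid, so each gene was set beside its neighbours. The median log2 fold change of genes tested within 5 Mb was -0.0948 for Klf4, -0.0979 for Cebpb, -0.0538 for Cebpd, -0.0614 for Dlk2, 0.0257 for Lpl and 0.214 for Fabp4. The shift around Fabp4 (25 genes, 64% called) was in its own direction and far smaller than its change, and the other medians were within 0.1 of 0. The counting was not set to use strand, and 3 of the tested genes share exon bases with a gene on the other strand. Cebpb shares 312 bases with Tmem189 (20.7% of its length), Cebpd 562 with Spidr (15%) and Dlk2 51 with Abcc10 (2.41%). Reads in shared bases cannot be assigned to one strand, and reads that touched both genes were not counted for either. The log2 fold changes of the partners were 0.30 for Tmem189, -0.10 for Spidr and -0.12 for Abcc10.

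**Figure D2:**
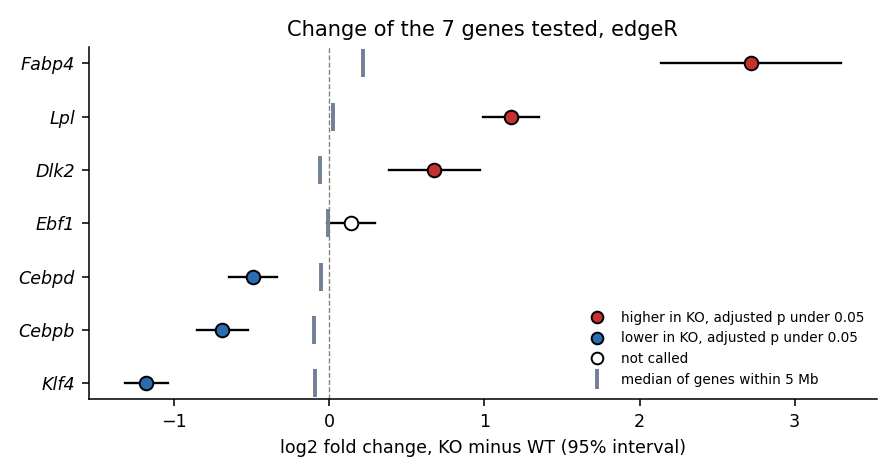
Log2 fold change, KO minus WT, of the 7 tested genes with 95% intervals from edgeR; grey ticks are the medians of genes within 5 Mb. Fabp4 has the widest interval (2.14 to 3.30) and Ebf1 spans 0, while the grey ticks lie near 0 for all but Fabp4 (0.214).

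Other genes of the programme were read from the same fit, with their counts set beside the 25.1% higher and 23.6% lower of all genes tested. These lists too were chosen with earlier results of these data known. Of 20 factors listed here as promoting adipogenesis, 16 were tested, with 4 higher, 7 lower and 5 not called and a median log2 fold change of -0.142. The share higher was about that of all genes and the share lower was above it, and the list was not tested as a whole. Beyond 1.5-fold (glmTreat) 1 was higher and 1 lower, against 5.01% higher and 4.26% lower of all genes. The largest difference was in Ppargc1a, a coactivator of PPARγ linked to mitochondria and brown fat, with 0 reads in each WT library and 283, 277 and 357 in KO, at least 114-fold higher when each WT library is put at the floor of 3 reads. Stat5a, a signal transducer with a role in fat cell differentiation, went the other way, with 1429, 1395 and 1555 reads in WT against 423, 457 and 414 in KO (log2 fold change -1.54 ± 0.0640, adjusted p = 5.84e-10). Egr2, an early factor upstream of Cebpb, was higher (0.86 ± 0.138, adjusted p = 0.000189), as were Ebf3 (0.32) and Cebpg (0.21). Zfp467 (-0.54), Creb1 (-0.39), Klf9 (-0.35) and Rxra (-0.28, the dimer partner of PPARγ) fell. Rxra and Klf9 were the most abundant of the list, at 19.6 ± 0.315 and 19.4 ± 0.232 FPKM in WT (SD, n = 3).

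Of 24 factors that restrain adipogenesis, all tested, 14 were higher, 3 lower and 7 not called, with a median of 0.290, against 25.1% higher and 23.6% lower of all genes. Beyond 1.5-fold (glmTreat) 3 were higher and 0 lower, against 5.01% higher and 4.26% lower of all genes. The list was not tested as a whole. Nr2f1, an orphan nuclear receptor, had 961, 821 and 1054 reads in WT against 3242, 3486 and 3058 in KO (log2 fold change 2.01 ± 0.0682, adjusted p = 8.58e-11), and its paralogue Nr2f2 rose by 0.67. Hes1, a target of Notch signalling, rose by 1.24 ± 0.152 (adjusted p = 1.85e-05), the serum-induced transcription factor Egr1 by 0.98 ± 0.0748 (adjusted p = 2.14e-07) and Klf2, which represses Pparg, by 0.65. Ctnnb1, which encodes β-catenin of the Wnt pathway, stood at 91.7 ± 1.02 FPKM in WT and 110.9 ± 4.11 in KO (SD, n = 3; log2 fold change 0.27). Gata2 (-0.38), Sox9 (-0.33) and Adam17 (-0.28) fell. Dlk1 had the highest level of the list, 955 ± 20.1 FPKM in WT and 1005 ± 49.0 in KO (SD, n = 3), and was not called (0.07 ± 0.0518, adjusted p = 0.265).

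Genes of the lipid-laden adipocyte ranged from 0 reads to abundant. Of 26, 16 were tested, with 3 higher, 6 lower and 7 not called and a median of -0.195, against 25.1% higher and 23.6% lower of all genes. No read in any library was found for 7, among them Cidec, Lep and Cd36. The enzymes of fatty acid synthesis and desaturation Fasn and Scd1 were the most abundant, at 75.7 ± 2.95 and 65.4 ± 1.62 FPKM in WT (SD, n = 3). The defining secreted product Adipoq had 0 or 1 read in every library. The 6 adipocyte markers summed to 4.14 to 4.43 FPKM in WT and 0.552 to 1.37 in KO, nearly all from Retn, the gene of resistin, with 129, 121 and 143 reads in WT against 12, 35 and 24 in KO (log2 fold change -2.24 ± 0.259, adjusted p = 1.08e-05). The marker sum was thus lower in KO while Fabp4 and Lpl were higher. Agpat2 (-1.31 ± 0.194, adjusted p = 9.48e-05) and Dgat2 (-1.01 ± 0.153, adjusted p = 0.000117), enzymes of triglyceride synthesis, fell, as did Lpin1 (-0.63) and Acaca (-0.36). Plin2, a coat protein of lipid droplets in many cell types, rose by 0.58 ± 0.0671 (adjusted p = 1.16e-05), as did Fabp5 (0.47) and Scd1 (0.31). Fasn fell by 0.16 (adjusted p = 0.0376), a call lost when any 1 library other than KO replicate 3 was left out (adjusted p 0.0505 to 0.149).

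Of 8 C/EBP and DLK family members, 6 were tested, with 3 higher, 2 lower and 1 not called and a median of 0.143. Among these calls were Cebpb, Cebpd and Dlk2, given above. Of all genes tested, 25.1% were higher and 23.6% lower. Ddit3, the stress-induced C/EBP that blocks its relatives, rose by 0.39 ± 0.0857 (adjusted p = 0.00192), and Cebpe had at most 1 read in a library. Of 10 preadipocyte and progenitor genes, 9 were tested, with 6 higher, 2 lower and 1 not called and a median of 0.322. The shares of all genes are those just given, and the list was not tested as a whole. Cd24a, a surface protein of adipocyte progenitors, had 133, 141 and 155 reads in WT against 3710, 3995 and 3704 in KO (log2 fold change 4.95 ± 0.0727, adjusted p = 2.53e-14). Thy1 rose by 0.86, Cd9 by 0.56, Itgb1 by 0.39 and Cd34 by 0.32, whereas Ly6a, the gene of SCA-1, fell by 0.54 ± 0.0660 (adjusted p = 1.83e-05). Pdgfra fell by 0.21 (adjusted p = 0.0267), a call lost without WT replicate 1, 2 or 3 (adjusted p up to 0.0859).

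**Figure D3:**
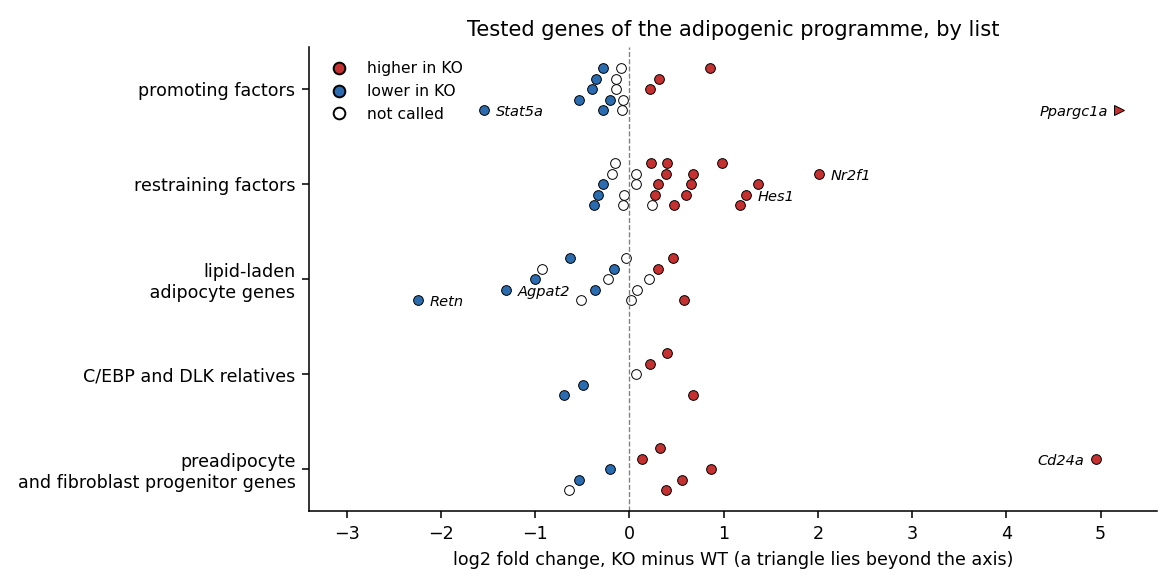
Log2 fold change, KO minus WT, of the tested genes of the 5 lists; each point is a gene and genes in more than 1 list appear in each. Red points are higher and blue points lower in KO at an adjusted p under 0.05; restraining factors show 14 red against 3 blue, promoting factors 4 against 7, and the Ppargc1a triangle marks a gene with 0 reads in WT.

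Markers of other cell types were low throughout. The summed level in WT and KO was 2.67 to 2.96 and 0.298 to 0.648 FPKM for 5 epithelial markers, 0.203 to 0.219 and 0.136 to 0.244 for 4 endothelial markers, 0.251 to 0.360 and 0.0767 to 0.254 for 4 skeletal muscle markers, and 0.243 to 0.498 and 0.792 to 1.33 for 5 chondrocyte and bone markers. The epithelial sum fell with the same contrast, nearly all from Krt14 (89, 91 and 112 reads in WT against 18, 9 and 8 in KO). The chondrocyte and bone sum rose, from Col2a1 (11, 18 and 7 reads against 66, 70 and 77) and from Bglap, whose 2 to 10 reads per library overlapped. Acan (1 read in each WT library, 0 in KO) and Alpl (2, 3 and 5 against 2, 0 and 0) did not rise. The part of these markers in the results above was not tested. Epcam, Krt18, Myod1 and Ibsp were at 0 in every library.

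The circRNA libraries gave a second readout of the same genes, since a circle forms when a downstream exon end is spliced back to an upstream exon start. Of 16171 circRNAs listed over the 12 libraries, 9 lay inside the 10 genes: 7 with both ends on exon edges of Ebf1, and 1 each inside an intron of Ebf1 and of Zfp423. The other 8 genes had none, the abundant Cebpb, Cebpd and Klf4 included, and Cebpb has 1 annotated exon. The Ebf1 junctions read as below (GRCm38, plus strand), with the last 15 bases of the end exon in lower case and the first 15 of the start exon in capitals. Exons are numbered in the annotated transcript that holds both edges.
Ebf1 exons 2 to 5, chr11:44620414-44632824: cgagatcatgtgcagCGGGGTGGGTCTGGC
Ebf1 exons 2 to 6, chr11:44620414-44643469: agtgataattgacagCGGGGTGGGTCTGGC
Ebf1 exons 7 to 9, chr11:44869092-44908037: ctggtctggagtgagGTTCTTCCTGAAGTT
Ebf1 exons 7 to 10, chr11:44869092-44924575: gattcatctacacagGTTCTTCCTGAAGTT
Ebf1 exons 9 to 10, chr11:44907904-44924575: gattcatctacacagCAGCTACTCCCTGTA
Ebf1 exons 9 to 10, chr11:44907907-44924575: gattcatctacacagCTACTCCCTGTATCA
Ebf1 exons 9 to 11, chr11:44907907-44972952: gagcgcttgccaaagCTACTCCCTGTATCA
In the genome the canonical splice letters flanked each of the 7 circles, GT past its end and AG before its start. Pairs of junctions share a start at exon 2, at exon 7 and at one form of exon 9, and 3 share an end at exon 10. The forms of exons 9 to 10 start 3 bases apart.

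Reads were few, so these values are given without a test: 2 libraries against 2 cannot go below p = 0.33 in an exact permutation test. In cytoplasmic RNA the Ebf1 circles summed to 28 and 28 junction reads for WT against 19 and 27 for KO. The KO cytoplasmic libraries held fewer junction reads in all, 50629 and 63335 against 77818 and 81941 for WT. These totals count the listed circRNAs and do not measure sequencing depth. The paper reports less exonic circRNA in KO cytoplasm, and scaling to these totals would take out such a difference too. Per 10000 junction reads the order turned, with 3.60 and 3.42 in WT below 3.75 and 4.26 in KO. In whole-cell RNA they summed to 20 and 22 in WT and 15 and 14 in KO, or 3.46 and 3.99 against 2.58 and 2.78 per 10000. No exonic Ebf1 circle was listed in nuclear RNA, whose libraries held 2189 to 4383 junction reads against 50341 to 81941 in the other fractions. In the nucleus the intronic circle of Ebf1 (chr11:44648379-44648920) had 4 and 1 reads in WT against 1 and 5 in KO, and that of Zfp423 (chr8:87915665-87915827) had 1 and 4 against 1 and 2, both overlapping. Over the 1166 nuclear circRNAs 47.3% had KO above and 13.6% had KO below in raw reads. The nuclear KO libraries held more junction reads, 3743 and 4383 in all against 2189 and 2635 for WT. The paper reports more exonic circRNA in KO nuclei. No share scaled to these totals was computed for the nucleus.

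Single circles moved in different directions in the cytoplasm. The circle of exons 7 to 10 (485 nt spliced) had 15 and 18 reads in WT against 3 and 2 in KO. The circle of exons 7 to 9 (358 nt), which shares its start, had 3 and 2 in WT and 7 and 9 in KO. Exons 2 to 6 (420 nt) had 1 and 0 in WT and 5 and 13 in KO, and exons 2 to 5 (351 nt), again with a shared start, had 6 and 4 against 2 and 1. So within each pair 1 circle was lower and the other higher in KO, at 18 reads or fewer per library. In raw reads the libraries did not overlap for any of the 5 cytoplasmic circles, 2 with KO above and 3 with KO below, against 33.2% above and 49.5% below over the 9648 cytoplasmic circRNAs. Per 10000 junction reads 2 lay above and 2 below, against 38.9% and 43.8%. The shorter exons 9 to 10 circle (258 nt) then overlapped, at 0.386 and 0.488 in WT and 0.395 and 0.316 in KO. In whole-cell RNA the pattern was not the same: exons 7 to 10 (4 and 6 against 6 and 2) and exons 2 to 6 (5 and 6 against 4 and 6) overlapped, and exons 2 to 5 had 0 and 1 in WT and 3 and 3 in KO. Exons 9 to 11 (7 and 3 against 1 and 1) and the longer exons 9 to 10 circle (261 nt, 4 and 6 against 1 and 2) were listed in whole-cell RNA and not in cytoplasmic RNA. The shorter one (258 nt, 3 and 4 against 2 and 2) was listed in cytoplasmic RNA and not in whole-cell RNA. Over the 10700 whole-cell circRNAs 32.5% had KO above and 35.7% had KO below.

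**Figure D4:**
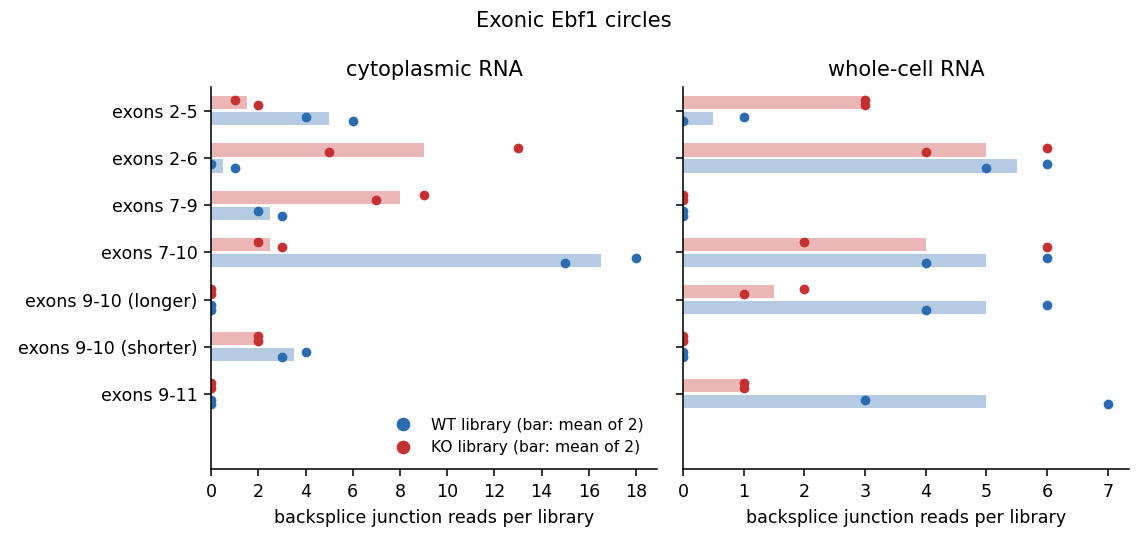
Backsplice junction reads of the 7 exonic Ebf1 circles in cytoplasmic and whole-cell RNA; points are libraries and bars are means of 2. In the cytoplasm the exons 7 to 10 circle is higher in WT (15 and 18 reads against 3 and 2) and the exons 7 to 9 and 2 to 6 circles are higher in KO, and in whole-cell RNA the exons 2 to 6 and 7 to 10 circles overlap between genotypes.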

How the data were processed

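The mRNA-seq files hold raw read counts per gene, which the authors deposited after alignment with HISAT2 and counting over exons with featureCounts (version 2.0.0; no strand setting, multi-mapping reads and reads of overlapping genes left out) on mm10 (GRCm38). The circRNA files hold the count of junction reads per circRNA that the authors deposited after find_circ; both were used without rounding. The per-gene length that the authors deposited gave FPKM, on library totals of counted reads. Gene IDs were paired with symbols for 55141 of 55401 genes. The test was the quasi-likelihood F test of edgeR (version 4.0.16 under R 4.3.3), with TMM scaling, filterByExpr and genotype as the only term, over 14688 genes with Benjamini-Hochberg adjustment at 0.05. The SE is the absolute log2 fold change divided by the square root of F. On simulated counts with the same spread set for every gene, 99% of 2-fold and 80% of 1.5-fold changes were recovered. The 200 genes changed had a mean of at least 50 reads, so thinner genes were not covered. A floor of 3 reads stands for a count of 0; floors cover counting error only, since no molecular identifiers are named. Alternatives were DESeq2 (version 1.42.0), other scalings, no filter, glmTreat, TPM, a replicate block and leaving out each library. The genes and the lists were chosen with earlier results of these data known. Named from each list were up to 5 called genes per direction with the largest change and a mean count of at least 50, and the 2 with the highest FPKM. Cebpe, the genes at 0 and single markers of blood, epithelium, cartilage and bone were named after their values were seen.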

Additional observations from a re-analysis of the deposited data

Results flagged for a closer look

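The Ebf1 circle of exons 2 to 5 differed between RNA fractions in its direction. In cytoplasmic RNA each KO library had fewer reads than each WT library, with a mean difference of -3.5 junction reads, and in whole-cell RNA each had more, with a mean difference of 2.5 junction reads. The counts were 6 or fewer in every library, and the difference between the fractions was not tested.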

How the results depend on the processing

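Each member, list and named gene was recomputed under the alternatives, and no tested result changed direction. Klf4, Lpl and Fabp4 kept their calls in 12 of 12 alternatives, with log2 fold changes of -1.23 to -1.14, 1.09 to 1.23 and 2.56 to 3.11. Cebpb (-0.77 to -0.60), Cebpd (-0.58 to -0.41) and Dlk2 (0.60 to 0.79) lost theirs only in the test beyond 1.5-fold, where the members lower in KO numbered 1. In that test the calls higher and lower in KO were 1 and 1 for promoting factors, 3 and 0 for restraining factors, 0 and 3 for lipid-laden adipocyte genes, 0 and 0 for C/EBP and DLK relatives, and 2 and 0 for progenitor genes, since a stricter change was asked for. Of all genes tested, it called 5.01% higher and 4.26% lower. Ebf1 (0.08 to 0.20) and Xpo4 (0.10 to 0.34 with 1 library left out) were called only without KO replicate 2. With 1 library left out, the progenitor genes lower in KO numbered 1 to 2. The replicate numbers do not pair the libraries: same-numbered deviations had r of 0.0543, 0.0289 and -0.0811. The replicate block kept the member counts at 3 higher and 3 lower (Klf4 -1.18, Ebf1 adjusted p = 0.148) and moved 2 list counts by 1 gene each, restraining factors lower in KO to 4 and progenitor genes higher in KO to 5. FPKM on TMM-scaled totals moved no member's level by more than its SD, and TPM put Klf4 at 82.5 in WT and 36.5 in KO. The cytoplasmic Ebf1 circle ratio, -0.28 on the log2 scale from reads, was 0.19 per 10000 junction reads and -0.56 without KO replicate 2. Low read counts limit Pparg, Cebpa, Zfp423 and each circle.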
